A study of Mus musculus with 20 samples.

Results

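Transferrin and the genes that take up, store, export and sense iron were examined in 20 mouse breast tumors. The set held 10 genes of the 43346 listed in the count table, matched by symbol: Trf, Gm20425, Tfrc, Fth1, Ftl1, Slc40a1, Slc11a2, Aco1, Ireb2 and Steap3. The set was chosen by the share of all counts that fell on Trf, so the height of Trf is a description here and carries no test. Gm20425 overlaps Trf and is kept apart from the other 9 genes below.

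Each tumor came from a different female F1 mouse, born to a wild-type FVB/J mother and a hemizygous BALB/c-neuT father. The paper describes these tumors as driven by an activated rat Her2/neu transgene, neuT. This line expresses it in mammary epithelium from a mouse mammary tumor virus promoter. All 20 tumors are taken to carry the transgene on that ground, and carriage was not checked here. The labels divide the tumors into 9 named Lo and 11 named Hi and do not say what is low or high. The tumors arose spontaneously, no transgene-free or normal mammary tissue was analysed here, and the age of each mouse is not labelled. Total counts ran from 38765682 to 65465755 per tumor, and 6.29% to 27.7% of them fell on Yam1 and AY036118, which lie at the ribosomal RNA locus. All 10 luminal epithelial markers were measured in the tumors, with a summed level of 3190 to 4929 CPM, counts scaled to a common library size with TMM factors.

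Transferrin is a secreted protein that carries ferric iron, and it is made mainly by the liver and also by mammary epithelium, which secretes it into milk. Iron-laden transferrin binds the transferrin receptor, Tfrc, enters the cell and gives up its iron in endosomes. There STEAP3 reduces it and the metal transporter encoded by Slc11a2 moves it to the cytosol. Ferritin, a shell of heavy (Fth1) and light (Ftl1) chains, stores iron, and ferroportin (Slc40a1) exports it. The iron regulatory proteins, encoded by Aco1 and Ireb2, bind stem-loops called iron-responsive elements in messenger RNAs when iron is scarce. Binding in a 5′ untranslated region blocks translation, whereas binding in a 3′ untranslated region protects the message from decay.

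Matches to the canonical element are shown because the iron regulatory proteins act through such stem-loops. The motif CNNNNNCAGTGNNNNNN was searched on the transcript strand, with the 5 bases after the first C required to pair with the last 5 (A with T, G with C or T). The transcripts were those of GENCODE M21 on GRCm38 (mm10), the build of the counts. Capitals mark the 6-base loop.
Fth1, first exon, chr19:9982733-9982759, plus strand: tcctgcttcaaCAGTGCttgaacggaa
Ftl1, first exon, chr7:45459780-45459806, minus strand: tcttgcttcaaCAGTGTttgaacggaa
Slc40a1, first exon, chr1:45925466-45925492, minus strand: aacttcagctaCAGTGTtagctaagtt
Tfrc, last exon, chr16:32631220-32631246, plus strand: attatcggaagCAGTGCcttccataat
Tfrc, last exon, chr16:32631599-32631625, plus strand: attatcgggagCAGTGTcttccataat
Tfrc, last exon, chr16:32631664-32631690, plus strand: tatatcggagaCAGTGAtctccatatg
Tfrc, last exon, chr16:32631711-32631737, plus strand: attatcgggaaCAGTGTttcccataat

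The matches in Fth1, Ftl1 and Slc40a1 lay in the 5′ untranslated region, and the 4 in Tfrc lay in the 3′ untranslated region. Among the longest coding transcripts of 21747 genes, 0.0966% held such a match in the 5′ and 0.538% in the 3′ untranslated region. No such match was found in the untranslated regions of the complete coding transcripts of the other members. Matches in coding parts were not kept. A transcript form of Slc11a2 is known to carry an element whose stem departs from this strict pairing, so no match here says nothing about its regulation.

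Gm20425 (ENSMUSG00000090639, chr9:103190208-103230307, minus strand) is annotated as a transcript that reads through from Trf (ENSMUSG00000032554, chr9:103204001-103230444) into the neighboring Srprb, which encodes a subunit of the signal recognition particle receptor. Its exons share 2108 bases with those of Trf, which are 69.6% of its own 3028 exon bases. The splice junctions that set the transcripts apart follow exon 16 of each, with the bases after the junction in capitals.
Trf, exon 16 to exon 17: agtgctcaacctcacGACTCCTGGAAGCCT
Gm20425, exon 16 to exon 17: agtgctcaacctcacCCGAGATACCCCTAA

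The count on Gm20425 was 0.959 to 0.973 times that on Trf in the 20 tumors, so the rows moved almost as one. The counting rule for reads that lie on overlapping genes is not given in the sources used here, and whether the same reads were entered on both rows was not tested. Gm20425 is therefore not read as a gene of its own, and every total below that includes it may hold the Trf reads again.

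Trf was the most abundant of the 9 genes in every tumor. Its share of all counts was 2.17% in the lowest tumor (Hi_2), 2.77% at the median and 4.28% in the highest (Hi_8; 95% Wilson interval 4.27% to 4.28%, counting error only). In the Lo tumors the share ran from 2.24% through a median of 2.66% to 3.37%, and in the Hi tumors from 2.17% through 3.05% to 4.28%. The Lo range lay wholly within the Hi range, and the tumors with the highest shares, Hi_8 and Hi_10, were both Hi.

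With the ribosomal RNA locus and Gm20425 left out of the totals, the share of Trf was 3.56% ± 0.655 (SD, n = 20), with a lowest value of 2.48% and a highest of 5.10%. Beside that locus and Gm20425, Trf was the highest row in 12 of 20 tumors and came after Lars2 in the others. The difference in its share between Lo (2.68% ± 0.351, n = 9) and Hi (3.06% ± 0.628, n = 11) was -0.38 percentage points, within the spread (two-sided exact permutation test, p = 0.123, and p = 0.0493 without Hi_2). With the ribosomal RNA locus left out of the totals, it was -0.25 (exact permutation p = 0.379). With Gm20425 left out as well, it was -0.27 (exact permutation p = 0.377). That locus took a mean of 18.4% of counts in Lo and 13.7% in Hi.

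**Figure D1:**
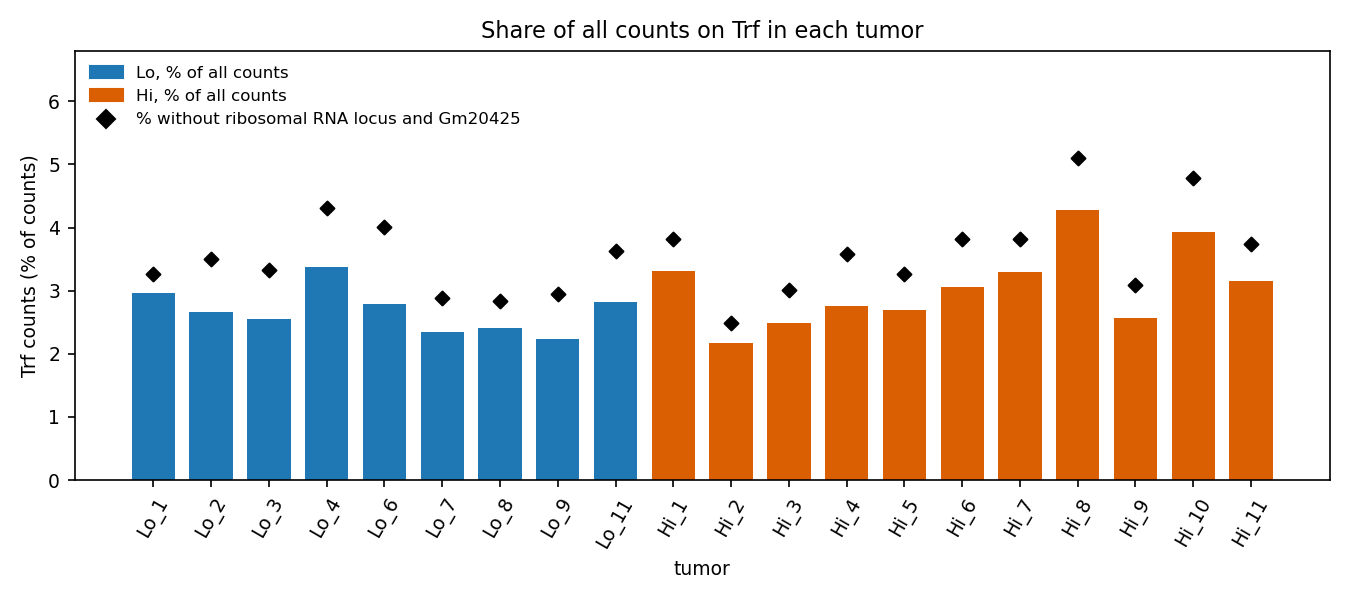
Bars give the percentage of all counts that fell on Trf in each tumor, in blue for Lo and orange for Hi. Diamonds give the percentage after the ribosomal RNA locus and Gm20425 were left out of the total. Hi_8 (4.28%) and Hi_2 (2.17%) mark the ends of the range.

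Liver markers were near 0 beside it. The 10 liver markers summed to 1.88 to 29.5 CPM, the highest of them, Ahsg, had a mean of 4.05 CPM, and Trf was at 19583 CPM in its lowest tumor. The 10 milk protein genes summed to 6738 to 16691 CPM, with a median sum of 9490 in Lo and 8907 in Hi. Csn3 (kappa-casein), at a mean of 7835 CPM, made up much of that sum, so the sum does not show that all 10 were abundant. Trf did not follow them closely: its log2 CPM had a Pearson r of 0.19 with the milk protein score, the mean standardized level of that list. In bulk RNA, fewer cells of a type and less RNA per cell cannot be told apart, here and below.

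Per length, the 9 genes covered more than 3 orders of magnitude. In RPKM, which scales a count by the listed exon length and by the total, Trf was at 8707 ± 1642 (SD, n = 20 here and in the rest of this paragraph). Fth1, the ferritin heavy chain, was next at 2364 ± 558, ahead of Ftl1, the light chain, at 240.3 ± 41.4. The receptor Tfrc was at 44.96 ± 9.24. These 4 genes kept their order in all 20 tumors. In mm10, Fth1 lies at chr19:9982703-9985092, Ftl1 at chr7:45457944-45459884, Tfrc at chr16:32608920-32632794 and Ireb2 at chr9:54863755-54912534.

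Below them, Aco1 (17.1 ± 4.73 RPKM) and Ireb2 (15.7 ± 1.39) were not separated, since Aco1 was the higher in 12 of 20 tumors. Steap3, at 11.5 ± 3.26 RPKM, was below Ireb2 in 18 of 20 tumors. Slc40a1 (4.42 ± 0.808) and Slc11a2 (3.72 ± 0.744) were the lowest, and were not separated either, Slc40a1 being the higher in 14 of 20 tumors. This order depends on the listed lengths, 9000 bases for Slc40a1 and 6354 for Slc11a2. Without length, their means were 39.8 and 23.6 CPM. Ftl1 overlaps the small RNA gene Gm22133, whose level followed it with r = 0.95, so part of either count may be shared.

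**Figure D2:**
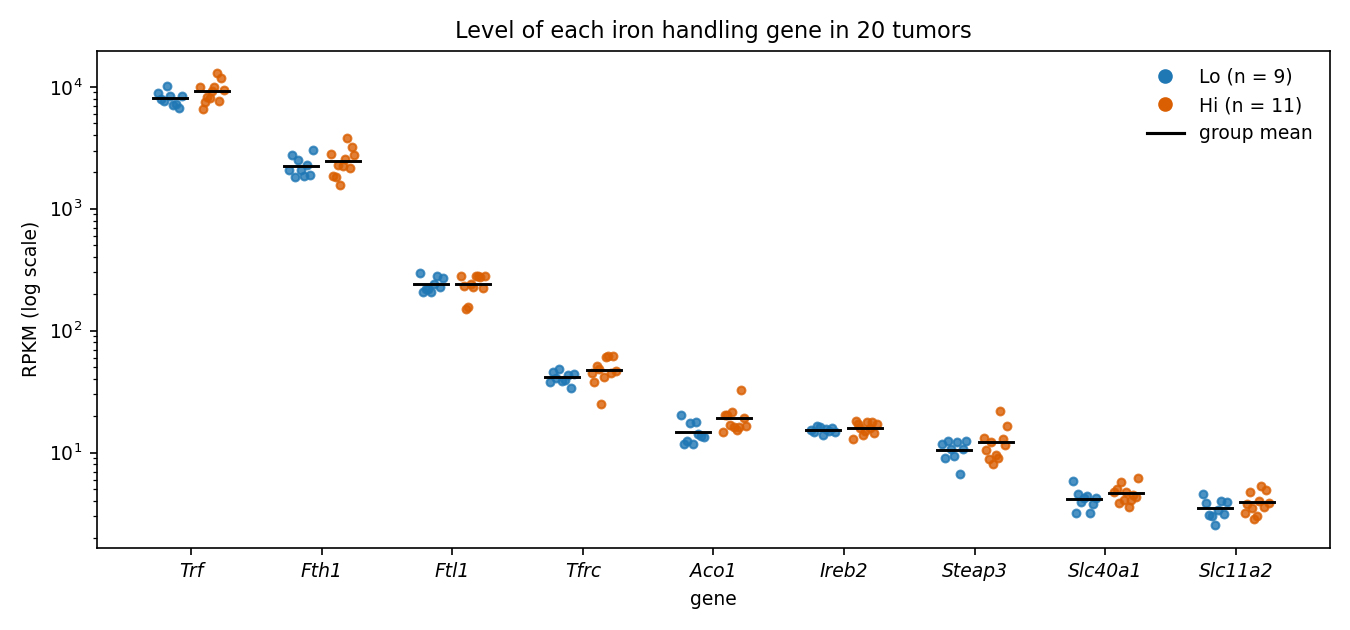
Points give the RPKM of each gene in each tumor on a log axis, in blue for Lo and orange for Hi, and bars the group means. Trf and Fth1 stood above all others in every tumor, and the Lo and Hi points of each gene overlapped.

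The genes also differed in how much they varied. The SD of log2 CPM over the 20 tumors was largest for Steap3 (0.39), Fth1 (0.36) and Tfrc (0.33) and smallest for Ireb2 (0.14). The median SD of all 17595 genes tested was 0.24, and 8 of the 9 genes lay above it, against 6 of 9 when the totals left out the ribosomal RNA locus and no further scaling was used. Of all genes tested, 13.8% had a smaller SD than Ireb2. Among the 3539 genes with a mean log2 CPM within 1 of that of Ireb2, the share was 30.5%. Among genes of like level in that sense, it ran from 76.7% for Slc11a2 to 96.2% for Steap3 over the other members. Trf is left out of that range, since only 4 genes lay near its level.

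Whether the labelled groups differed in these genes was asked next. In the Lo against Hi comparison, edgeR's quasi-likelihood test called 0 of 18992 genes at an adjusted p under 0.05 (percent called 0). At an unadjusted p under 0.05 there were 1035, and DESeq2 called 1. None of the 9 genes was called, and their log2 fold changes, as Hi over Lo, had a median of 0.08 beside 0.00 for all genes.

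The widest difference was that of Aco1, the iron regulatory protein that is also cytosolic aconitase. It was at 58.0, 63.2 and 85.2 CPM in the lowest, median and highest Lo tumor and at 63.3, 78.9 and 135.6 in the Hi tumors. The log2 fold change was 0.29 (SE 0.11, edgeR adjusted p = 0.818). The groups overlapped, and only Hi_9, at 135.6 CPM, was well above the highest Lo tumor. Those of the other 8 genes lay between -0.09 (Ftl1) and 0.12 (Steap3).

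Fth1 rose with Trf across the tumors. Fth1 was at 1554, 1850 and 2865 CPM in the lowest, median and highest Lo tumor and at 1335, 2040 and 3315 CPM in the Hi tumors. Trf was at 22378, 27488 and 36653 CPM in the Lo tumors and at 19583, 30802 and 43315 CPM in the Hi tumors. Hi_8 held the highest value of both, and Hi_2, the lowest for Trf, was among the low ones for Fth1.

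Per doubling of Trf, Fth1 rose by 1.03 on the log2 scale (SE 0.16, edgeR adjusted p = 0.0111 over 17593 genes). Pearson's r was 0.83 (permutation p = 1e-05, the smallest that 100000 permutations can give) and Spearman's rho 0.81 (permutation p = 4e-05). Without Hi_8 and Hi_2, the tumors farthest from the median of Trf, r was 0.75, and it was 0.70 within Lo and 0.91 within Hi.

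Of the 8 genes that could be tested against Trf, only Fth1 was called, and 0.296% of all genes were called in that comparison. The median slope of the 8 was 0.31 beside 0.02 over all genes. The call of Fth1 rested on Hi_8, since without that tumor the slope was 0.98 with an edgeR adjusted p of 0.165. The number of genes called against Trf was itself unsteady, falling from 52 to 0 without Hi_8 and reaching 910 without Hi_10.

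Tfrc, the receptor for transferrin, came next to Fth1 by adjusted p. It was at 205.9, 272.4 and 327.2 CPM in the lowest, median and highest Lo tumor and at 151.1, 290.8 and 385.4 CPM in the Hi tumors. Hi_8 was again the highest and Hi_5 the lowest. The slope was 0.75 log2 units per doubling of Trf (SE 0.17) and just missed the call (edgeR adjusted p = 0.0556), with r = 0.69 (permutation p = 0.00075) and rho = 0.75 (permutation p = 3e-04). The slope stayed between 0.71 and 0.82 whichever tumor was left out, passing the threshold in 5 of the 20 fits, and r was 0.81 within Lo and 0.64 within Hi.

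Steap3, the endosomal ferrireductase, had a slope of 0.79 (SE 0.23, edgeR adjusted p = 0.0911), which fell to 0.48 without Hi_8. The slopes of Slc11a2 (0.34), Ftl1 (0.27), Slc40a1 (0.19) and Ireb2 (0.04) were smaller than Fth1's, and that of Aco1 was -0.22. None of these was called.

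Against the level of Tfrc, 2 of the 8 other genes were called, both higher with it, beside 2.5% of 17594 genes called. Fth1 rose by 0.90 log2 units per doubling of Tfrc (SE 0.16, edgeR adjusted p = 0.0047), with r = 0.79 (permutation p = 2e-05) and rho = 0.77 (permutation p = 0.00018). This call held in each fit that left out a single tumor, with an adjusted p of at most 0.0249. Without Hi_5 and Hi_8 together, r was 0.70 and the adjusted p 0.115.

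Slc11a2, the endosomal metal transporter, was at 19.2, 20.99 and 27.6 CPM in the lowest, median and highest Lo tumor and at 17.7, 23.0 and 34.4 CPM in the Hi tumors. The Hi range enclosed the Lo range, with Hi_5 lowest and Hi_8 highest, as for Tfrc. Slc11a2 rose by 0.50 log2 units per doubling of Tfrc (SE 0.13, edgeR adjusted p = 0.0497), at the edge of the threshold. The relation was carried by the Hi tumors (r = 0.79 within Hi and 0.10 within Lo, a difference that was not tested), and without Hi_8 the slope was 0.40 and the adjusted p 0.168. The call was lost in 15 of the 20 fits that left out a tumor.

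Ftl1 had a slope of 0.03 on Tfrc and Slc40a1 of 0.01, and both signs turned when the totals left out the ribosomal RNA locus, without further scaling. The ferritin chains were thus unlike in this comparison. The RPKM of Fth1 was 10.03 ± 2.48 times that of Ftl1 (SD, n = 20), from 6.51 in Hi_5 to 14.6 in Hi_4. This ratio depends on the listed lengths, 866 bases for Fth1 and 1340 for Ftl1. Without length, their means were 2059 and 321 CPM. How reads that align to several places were counted was not examined, so the ratio is not read as one of ferritin chains. A compared level and its covariate come from the same library, so error in a library's scaling enters both.

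**Figure D3:**
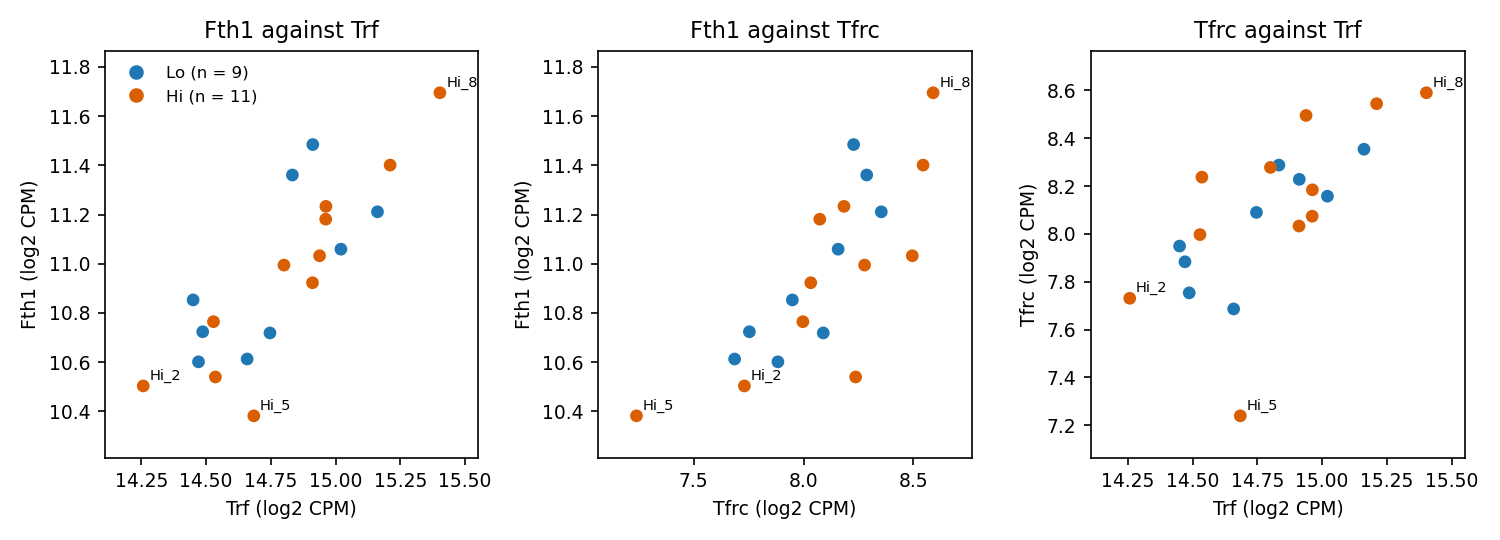
Each point is a tumor, in blue for Lo and orange for Hi, and both axes give log2 CPM. Fth1 rose with Trf (r = 0.83) and with Tfrc (r = 0.79), and Hi_8 sat at the upper end in all 3 panels.

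Other measures of the tumors moved with some of these genes. The hypoxia score, from 10 genes with a summed level of 1256 to 2531 CPM in Lo and 1234 to 2230 in Hi, was higher where Fth1 was higher. Fth1 rose by 0.25 log2 units per SD of the score (SE 0.063, edgeR adjusted p = 0.0259, r = 0.67 with permutation p = 0.00142, rho = 0.63 with permutation p = 0.00325), the only call among the 9 genes beside 3.88% of all genes. The score had r = 0.54 with Tfrc and 0.42 with Trf, and its part in the relation of Fth1 to both was not tested. The call of Fth1 with it was lost in 3 of the 20 fits that left out a tumor. Aco1 ran the other way, with r = -0.54 and no call.

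Ftl1 was the only gene of the 9 called with the luminal epithelial score, beside 4.67% of all genes. It was at 304.4, 322.3 and 398.5 CPM in the lowest, median and highest Lo tumor and at 192.1, 317.3 and 385.1 in the Hi tumors, of which Hi_3, Hi_4, Hi_2 and Hi_10 lay below every Lo tumor. It rose by 0.16 log2 units per SD of the score (SE 0.044, edgeR adjusted p = 0.0424, r = 0.66 with permutation p = 0.00145, rho = 0.54 with permutation p = 0.0147). The call was lost in 11 of the 20 fits that left out a tumor.

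No gene of the 9 was called with the other scores. The share of all genes called was 0.495% for milk protein, 1.39% for macrophage, 2.02% for fibroblast, 1.08% for endothelial, 0.0227% for adipocyte, 0.00568% for red cell and 1.03% for cycling genes. It was 0.108% for the share of counts at the ribosomal RNA locus. In all, 124 relations between a gene and a measure were computed, and adjusted p-values run over all genes tested.

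**Figure D4:**
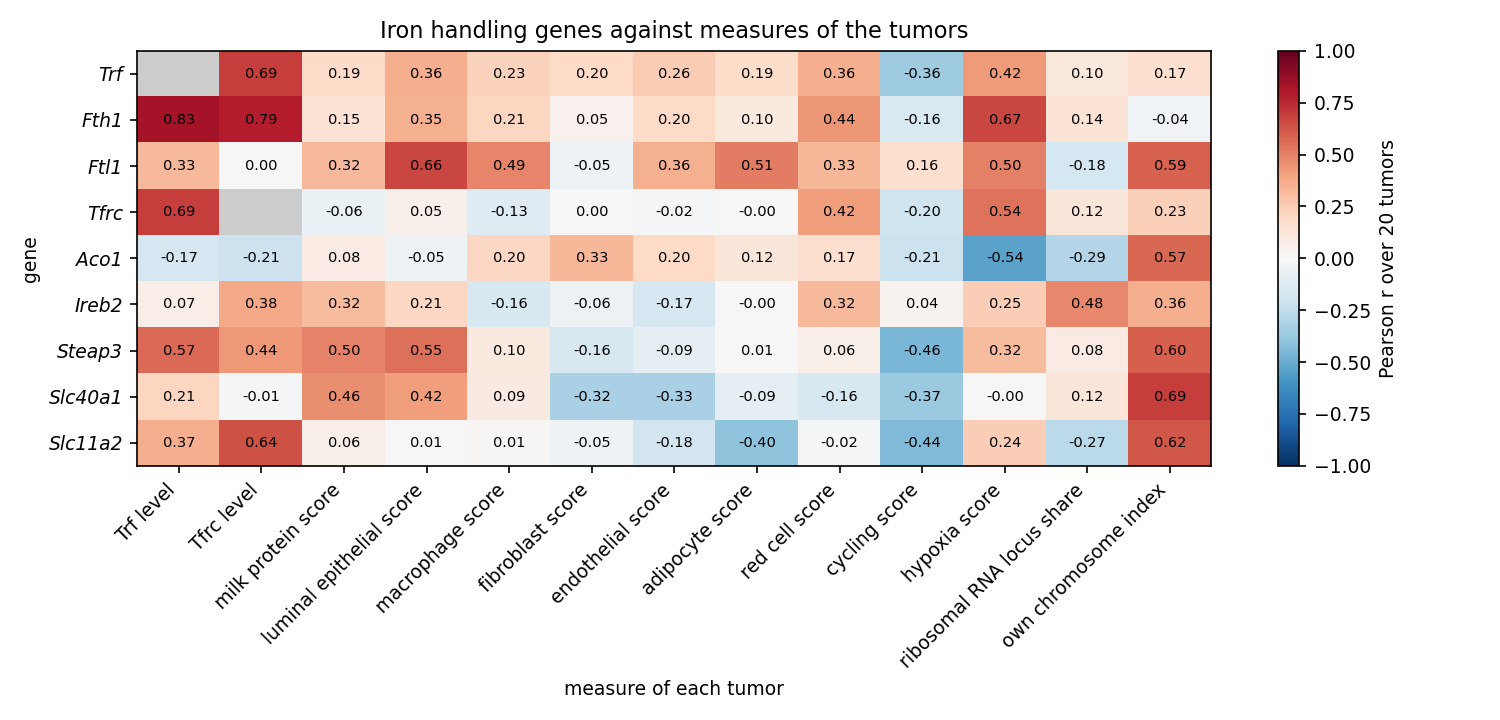
Each cell gives Pearson's r over the 20 tumors between the log2 CPM of a gene (rows) and a measure of the tumor (columns), red for positive and blue for negative. Grey cells would set a gene against itself. The strongest values were those of Fth1 with Trf (0.83) and with Tfrc (0.79).

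Members on chromosomes whose expression varied as a whole were followed next. For each chromosome an index was taken in each tumor as the median, over its other genes with a mean of at least 5 CPM, of the deviation from each gene's median, less the same over all autosomes. It is a measure of RNA, not of DNA. The index varied widely on chromosome 4 (SD 0.14 log2 units), 1 (0.095) and 15 (0.078), and by 0.030 or less on chromosomes 7, 9, 16 and 19, which hold the other members.

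Of the 9 genes, 3 were called with their own chromosome's index, all in the positive direction, beside 12.3% of 17592 genes called in that direction and 12.9% in either. The median slope over all genes was 1.05, and a value near 1 is built into an index that is a median over such genes. The 3 called genes were Slc40a1 and Steap3 on chromosome 1 and Slc11a2 on chromosome 15. The share of 12.3% covers all chromosomes, also those whose index hardly varied. Genes with a mean of at least 5 CPM entered the index of their chromosome, whereas the members did not. This share and the median r values below are therefore not a like background for the members. Genes other than members had a median r with their index of 0.39 on chromosome 1, 0.44 on 15 and 0.59 on 4, which holds Aco1. That median was 0.09 on chromosome 9 and 0.19 on chromosome 7. The calls are therefore not read as particular to iron handling genes.

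Slc40a1 (chr1:45908068-45926523), the iron exporter, was at 26.9, 38.4 and 46.0 CPM in the lowest, median and highest Lo tumor and at 30.8, 37.6 and 56.8 CPM in the Hi tumors. Its lowest tumors within Lo and Hi, Lo_8 and Hi_7, were those with the lowest chromosome 1 index. The slope was 1.94 log2 units per log2 unit of the index (SE 0.46, edgeR adjusted p = 0.0075), with r = 0.69 (permutation p = 0.00059) and rho = 0.61 (permutation p = 0.00486). Without Lo_8 the slope was 1.93 and the adjusted p 0.0675.

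Steap3 (chr1:120190757-120272705) was at 35.4, 63.9 and 78.3 CPM in the lowest, median and highest Lo tumor and at 45.3, 64.1 and 126.2 CPM in the Hi tumors. Lo_8 was the lowest of all 20 and Hi_8 the highest. The slope was 2.56 (SE 0.81, edgeR adjusted p = 0.0391), with r = 0.60 (permutation p = 0.00755) but rho = 0.31 (permutation p = 0.193). Without Lo_8 the slope was 2.07 and the adjusted p 0.275, and without Lo_8 and Hi_7 together r was 0.29. The call was also lost without Hi_5, Hi_7 or Hi_11, with slopes of 2.39, 2.82 and 2.36 and adjusted p-values of 0.0766, 0.0636 and 0.0632.

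Slc11a2 (chr15:100387898-100425072) had a slope of 1.997 (SE 0.55, edgeR adjusted p = 0.0198), with r = 0.62 (permutation p = 0.00328) and rho = 0.45 (permutation p = 0.0483). Hi_8 had both the highest chromosome 15 index (0.20) and the highest Slc11a2, and without it the slope was 1.53 and the adjusted p 0.168.

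Aco1 (chr4:40143081-40198338) was not called with the chromosome 4 index (slope 1.18, SE 0.42, edgeR adjusted p = 0.0643), with r = 0.57 (permutation p = 0.0118) and rho = 0.73 (permutation p = 0.00044). Its value in Hi_9, 135.6 CPM, stood apart from a chromosome index near 0. Without Hi_9 the slope was 1.25 and the adjusted p 0.001. Within the 9 Lo tumors r was 0.90, and within the 11 Hi tumors 0.37.

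**Figure D5:**
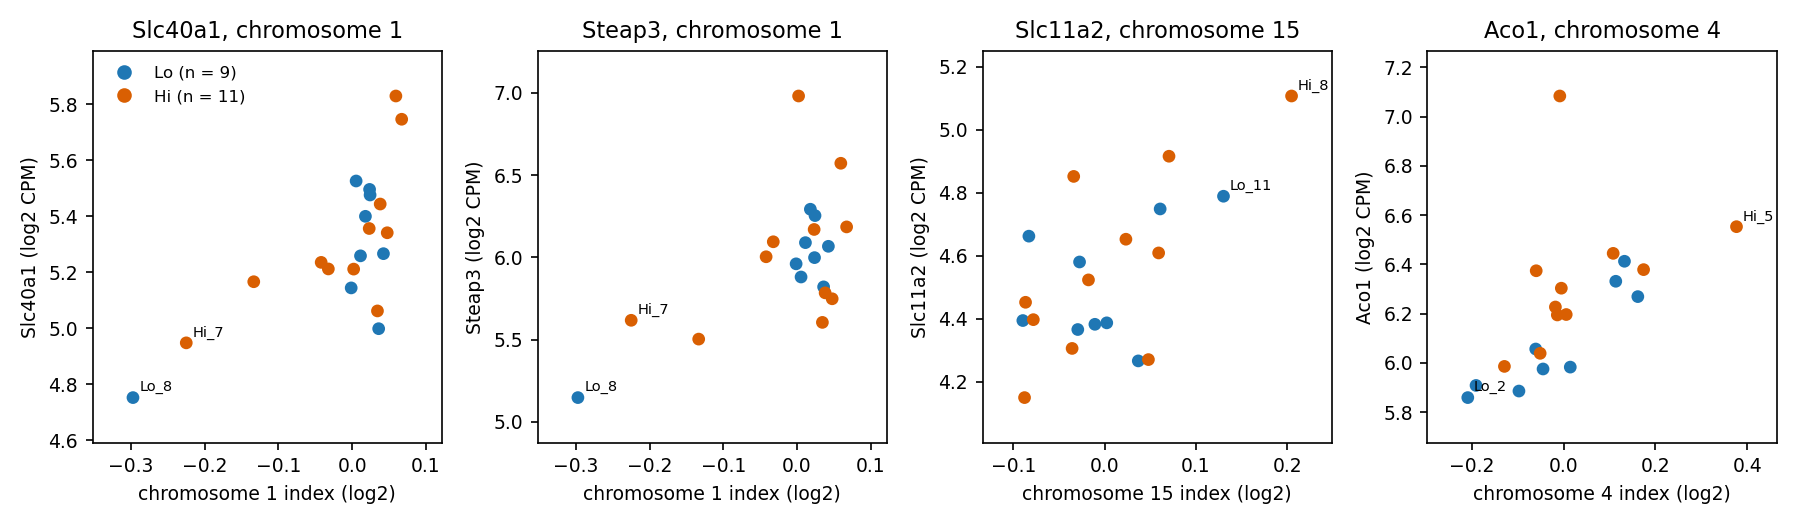
Each point is a tumor, in blue for Lo and orange for Hi, with the index of the gene's own chromosome in log2 units on the horizontal and the log2 CPM of the gene on the vertical axis. The 2 tumors farthest from the median of the index are named in each panel. Lo_8 was lowest in the chromosome 1 panels.

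Genes whose pattern over the 20 tumors was most like that of a member were ranked by Pearson's r among the 13830 other tested genes whose log2 CPM averaged 1 or more. These ranks are descriptions over the same libraries. For Trf they were Hexa (0.85), the alpha subunit of lysosomal hexosaminidase, then Fth1 (0.83), Arsa (0.82), a lysosomal sulfatase, Dap (0.81) and Qsox1 (0.81), a secreted sulfhydryl oxidase. Fth1 had Abr (0.84), Tnfsf12Tnfsf13 (0.84), Ckap4 (0.83), Trf (0.83) and Reep6 (0.82). Trf thus ranked 4 of 13830 for Fth1, and Fth1 ranked 2 for Trf.

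For Tfrc the most alike were Fam101a (0.90), Fam134b (0.90), a receptor for autophagy of the endoplasmic reticulum, Cav2 (0.88), a caveolin, Rragd (0.87), a Rag GTPase, and Ptk2 (0.87), the focal adhesion kinase. Fam134b and Ptk2, like Arsa and Dap for Trf, lie on chromosome 15, and Hexa shares chromosome 9 with Trf. The chromosome 15 index was highest in Hi_8 (0.20), the tumor highest in Trf and Tfrc, and its part in these likenesses was not tested. Slc40a1 had Dcaf6 (0.82) and Brox (0.79), which share chromosome 1 with it, and Rassf6 (0.80), Spata7 (0.75) and Palmd (0.74), which do not. The nearest gene to Steap3 was Fam174a (0.93), also on chromosome 1. The nearest was Tom1 (0.82) for Slc11a2, Snx18 (0.77) for Aco1 and Arhgap5 (0.92) for Ireb2.

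Of the wider iron pathway, 61 of 63 listed genes were found by symbol and 55 were tested in most comparisons. None was called in Lo against Hi, with Trf or with Tfrc. At an unadjusted p under 0.05 there were 6 of 57 (10.5%), 12 of 55 (21.8%) and 10 of 55 (18.2%), in that order, beside 5.45%, 18.2% and 16.3% of all genes tested, so that the shares with Trf and Tfrc were near those of all genes. Their median slope on Trf was 0.19 beside 0.02 over all genes, and on Tfrc 0.09 beside 0.01. With the index of their own chromosome 9 of the 55 (16.4%) were called, all in the positive direction, near the 12.3% of all genes.

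The 3 most abundant pathway genes per length were Lcn2, Ltf and Pcbp1. Lcn2, a secreted protein that binds iron-carrying siderophores, was at 1683 RPKM ± 273 (SD, n = 20). Pcbp1, a cytosolic iron chaperone, was at 113 ± 9.69. Ltf, lactoferrin, an iron-binding milk protein of the transferrin family, was at 27.3, 168 and 1051 RPKM in the lowest, median and highest tumor.

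Ltf thus spread far more widely than Trf, with an SD of log2 CPM of 1.38 beside 0.29. It rose by 1.29 log2 units per SD of the milk protein score (SE 0.087, edgeR adjusted p = 6.94e-09) and by 0.94 per SD of the luminal epithelial score (SE 0.21, edgeR adjusted p = 0.0218). Ltf was not alone in this. Of 55 pathway genes, 2 (3.64%) were called with the milk protein score, beside 0.495% of all genes. With the luminal epithelial score 6 (10.9%) were called, 5 higher and 1 lower with it, beside 4.67% of all genes. Trf had slopes of 0.05 (SE 0.071) and 0.11 (SE 0.070) on these scores and was called with neither. These 2 scores were chosen for Ltf after their values were seen.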

How the data were processed

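RNA of 20 tumors was prepared with miRNeasy and a TruSeq mRNA kit and sequenced as paired-end reads in a single run, which the authors shortened and aligned to mm10 with TopHat in MapRseq. The submitters' processing notes name TopHat2 2.0.12 and featureCounts 1.4.4, and list the builds mm10 and hg19 without a role. The values they deposited are raw counts, 1 column for each tumor. The strand setting, the annotation release and the treatment of reads over overlapping genes are not given in the sources used here. The reference strain was C57BL/6, and its effect on reads of these F1 mice was not tested.

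Groups followed the labels. Whether samples of a label share litters or days is not given, so p-values measure the spread between these tumors. Genes were tested with edgeR 4.0.16 in R 4.3.3 (filterByExpr and TMM, then its quasi-likelihood test, with p-values adjusted by Benjamini-Hochberg over all genes tested at 0.05). Covariates were the log2 CPM of Trf or Tfrc (prior count 2), marker scores in units of 1 SD (mean standardized log2 CPM of listed genes with a mean of at least 1 CPM, with at least 3 such genes), the percentage of counts at the ribosomal RNA locus, and the index of each gene's own chromosome. Standard errors were taken as the slope over the square root of its F. A gene was not tested against itself or a score it entered, and Gm20425 was not tested against Trf. RPKM was computed from counts, listed length and totals. Single relations used 100000 two-sided permutations. Wilson intervals are at 95%, and a count of 0 would allow up to 3 counts. Alternatives were RLE size factors, totals without the ribosomal RNA locus, no filter on low counts, DESeq2 1.42.0, Lo or Hi as a further term, other tumor sets and, added after the data were seen, totals without Gm20425 and each tumor left out in turn. Scripts used Python 3.11.15 and were tested on simulated data.

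The 10 genes and all lists were chosen with earlier results of these data known. Named were these genes, the pathway genes called in Lo against Hi or with Trf or Tfrc, the 3 most abundant pathway genes, and the genes most like each member (5 for Trf, Tfrc, Fth1 and Slc40a1, 1 for the others). Of 10 T cell markers, 2 reached 1 CPM, so that score was not computed.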

Additional observations from a re-analysis of the deposited data

Results flagged for a closer look

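Steap3 in Lo_8 lay apart from the other 8 Lo tumors. Its log2 CPM was 5.15, and the gap to the next tumor was 0.588 of the range of the 9 Lo tumors, above the limit of 0.493 from Dixon's test at 95%. Among the 9 genes tested in this way in the Lo group, it was the only such value. Chance flags about 1 in 20 for each gene, so a flag by chance among 9 genes would not be rare. The Hi group was larger than the limits used cover and was not tested in this way. Lo_8 also had the lowest chromosome 1 index of the 20 tumors (-0.30 log2 units), and the part of that index in the low Steap3 was not tested.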

How the results depend on the processing

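Scaling, filter and tumor set changed how many of the 9 genes were called, and the cause was not tested. With Trf, 1 gene was called, against 3 by DESeq2 (Tfrc, Fth1 and Steap3) and 0 without the 2 farthest tumors. With Tfrc, 2 were called, against 1 with totals without the ribosomal RNA locus, 1 with every gene of at least 1 count, 1 with Lo or Hi as a further term, and 0 without the 2 farthest tumors. The call with the luminal epithelial score fell to 0 with the same totals, with every gene and without the 2 farthest tumors, and that with the hypoxia score to 0 with those totals and without the 2 farthest. With the own chromosome index 3 were called, against 1 with those totals and 0 without the 2 farthest.

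With each tumor left out in turn, the number called ran from 0 (without Hi_8) to 3 (without Hi_10) for Trf, from 1 to 2 for Tfrc, from 0 to 1 for the luminal and from 0 to 2 for the hypoxia score, and from 1 (without Lo_8) to 4 (without Lo_4) for the own chromosome index. The difference in the share of Trf ran from -0.471 (without Hi_2, exact permutation p = 0.0493, the only such p under the threshold) to -0.26 percentage points (without Hi_8). No gene of the 9 was called in Lo against Hi or with the other scores under any alternative.

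Among slopes of genes that were not called, some changed sign. With totals without the ribosomal RNA locus they were -0.14 for Ireb2 with Trf, -0.11 for Ftl1 and -0.11 for Slc40a1 with Tfrc. Without the 2 farthest tumors they were -0.086 for Ftl1 and -0.064 for Slc40a1 with Tfrc, and 2.50 for Fth1 with its chromosome's index. Slc40a1 with Tfrc was -0.010 with Lo or Hi as a further term. Fth1 with its index was 0.95 with genes of at least 1 CPM in the index and 0.052 with Gm20425 left out of the totals. With a tumor left out, Fth1 ran from -0.062 to 0.10 and Steap3 from -0.013 to 0.16 in Lo against Hi, Ireb2 from -0.0063 to 0.086 with Trf, Ftl1 from -0.049 to 0.077 and Slc40a1 from -0.096 to 0.084 with Tfrc, and Fth1 from -2.11 to 0.96 with its index.

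Over all genes, calls with Trf numbered 8 with totals without the ribosomal RNA locus, 24 with every gene, 25 with Lo or Hi as a further term and 516 by DESeq2, beside 52. Without the 2 farthest tumors they numbered 0. Calls with Tfrc numbered 250, 8 and 779 with those totals, without the 2 farthest tumors and by DESeq2, beside 439. With the luminal epithelial score they numbered 5 with those totals, 465 with every gene and 0 without the 2 farthest tumors, beside 822. With the hypoxia score they numbered 633 with those totals and 404 without the 2 farthest, beside 683. With the own chromosome index these numbers were 2268 and 468, beside 2272. Losses among the 9 genes are thus not read as particular to them. The genes that DESeq2 called from the iron pathway list included Slc48a1 with Trf and Cybrd1 with Tfrc, names chosen after their values were seen. The 9 numbers that Lo and Hi share did not pair tumors, since the correlation of same-numbered tumors ran from -0.39 to 0.22 and was over 0.1 for 3 of 9. With the number as a replicate block, 0 genes were called, the share of Trf differed by -0.33 percentage points (exact sign-flip permutation p = 0.242) and Ireb2 had a log2 fold change of 0.0023.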
